A study of Arabidopsis thaliana with 2 samples.

Results

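The transcripts of 6 genes of photosynthetic carbon metabolism were followed on 2 Affymetrix arrays of Arabidopsis thaliana seedlings: RCA, AT1G56190, SBPASE, PRK, TRXF2 and AT1G11860. They were chosen because an earlier look at the same arrays had shown lower signals for such genes in the mutant. Every probe set that the platform annotation assigns to 1 of these genes alone was then taken. This gave 6 probe sets, 1 for each gene, so the 6 genes stand among 3600 genes read by 3794 single-gene probe sets, and among 8297 probe sets in all. A probe set is the group of short oligonucleotides that reports one transcript, and its value is a linear signal intensity.

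One array carried RNA from whole seedlings of sks, a mutant line also called snakeskin, described in the labels only as an insertion mutant in the Col-0 background, and the other carried RNA from unmodified Col-0 seedlings. Both sets of seedlings were at growth stage 1.0 and had grown under 24 hours of light a day at 22 °C on Murashige-Skoog medium with 1% agar and 1% sucrose. The labels do not name the interrupted gene or the number of independent insertion lines, so the genotype could not be checked on the arrays. With 1 array per genotype there was no replicate, and each difference below compares these 2 RNA samples, without a test, an error between plants or a p-value.

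In the Calvin cycle, the chloroplast enzyme Rubisco fixes CO2 onto a sugar bisphosphate, the product is phosphorylated and reduced, and further enzymes rebuild the acceptor sugar. Rubisco also reacts with oxygen, and the by-product is recycled by photorespiration, in which the mitochondrial glycine cleavage system releases CO2 and ammonia from glycine. Several Calvin cycle enzymes are switched on in the light when thioredoxins of the f type, which receive electrons from ferredoxin, reduce their disulphide bonds.

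All 6 genes had lower signals in sks than in Col-0. AT1G11860, which encodes the T protein of glycine cleavage, was 3.18-fold lower, PRK 2.84-fold, SBPASE 2.63-fold and TRXF2 2.33-fold. AT1G56190 was 1.96-fold lower and RCA 1.41-fold, so that 4 of the 6 probe sets passed a 2-fold limit. Among the 4124 probe sets called measured, those in the brighter 50% of non-control probe sets by mean log2 signal, 12.4% were at least 2-fold lower and 8.12% at least 2-fold higher in sks, and 54.4% were lower by any amount. Because the 6 genes were picked from this same difference, nothing is read from their share. The percentages given below for single genes only place each gene among the measured probe sets, and nothing is read from them either. Their median log2 difference was -1.31, beside -0.08 over all measured probe sets.

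At the entry of the cycle stands RCA (AT2G39730), the Rubisco activase, an ATP-driven protein that removes inhibitory sugar phosphates from Rubisco. Its signal was 4224.3 in sks and 5970.1 in Col-0. The mutant thus kept 70.8% of the wild-type signal, the smallest reduction among the 6 genes, with a log2 difference of -0.50. A difference at least as low was seen in 28.5% of measured probe sets. The RCA probe set, 15949_s_at, carries a suffix of the array's maker for probes that can be shared between transcripts, so part of its signal may come from a related one.

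The reduction phase was represented by AT1G56190, a phosphoglycerate kinase, which uses ATP to phosphorylate the first product of CO2 fixation. Probe set 16160_f_at read 366.9 in sks and 719.3 in Col-0. The mutant signal was 51.0% of the wild-type signal, which places the gene just short of 2-fold, at a log2 difference of -0.97. The _f_at suffix marks probes that can detect several members of a gene family. Phosphoglycerate kinases also serve glycolysis, and how much of this signal came from other members was not tested.

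Both measured enzymes of the regeneration phase were past 2-fold. SBPASE (AT3G55800), the sedoheptulose bisphosphatase, whose reaction commits carbon to the rebuilding of the acceptor, read 300.4 in sks and 790.8 in Col-0 on probe set 15990_at. PRK (AT1G32060), the phosphoribulokinase, which makes the sugar bisphosphate that Rubisco uses, read 470.4 and 1336.9 on probe set 16034_at. Their log2 differences, -1.40 and -1.51, lay 0.11 apart. The mutant kept 38.0% of the SBPASE signal and 35.2% of the PRK signal. A difference as low as that of PRK occurred in 5.00% of measured probe sets, and one as low as that of SBPASE in 6.09%. Both are known targets of thioredoxin f, and both probe sets have the plain _at suffix.

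TRXF2 (AT5G16400) encodes one of the f-type thioredoxins of the chloroplast stroma. Probe set 16136_at read 904.5 in sks and 2105.2 in Col-0, a log2 difference of -1.22. The mutant retained 43.0% of the wild-type signal, between that of SBPASE and that of AT1G56190. Only the transcript was measured, and the arrays hold no measure of the redox state of any protein.

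AT1G11860, the T protein, passes the one-carbon unit of glycine to tetrahydrofolate. Its probe set, 17420_at, read 286.6 in sks and 910.9 in Col-0. It had the lowest log2 difference of the 6 genes, -1.67, with 31.5% of the wild-type signal left in the mutant. A difference as low was found in 146 of the 4124 measured probe sets, 3.54%.

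**Figure D1:**
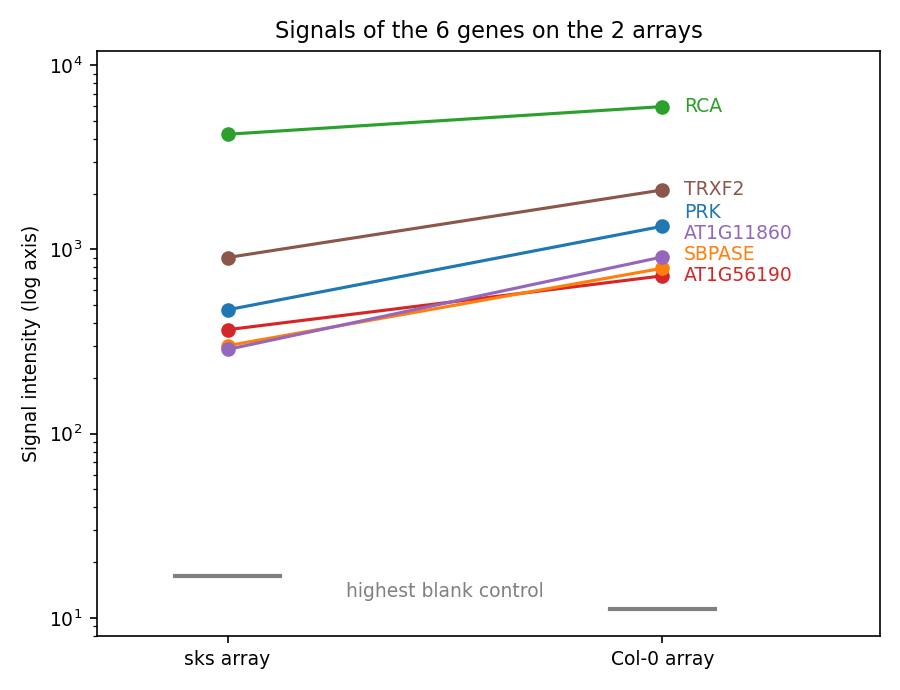
Signal intensity (log axis) of the 6 genes on the sks array and the Col-0 array, 1 point per array, joined for each gene. Grey bars mark the highest signal among 23 blank controls on each array, 16.8 in sks and 11.1 in Col-0. Every line slopes down towards sks, least steeply for RCA, and all points lie well above the blanks.

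All 12 values were far above the array background. The 23 blank controls, probe sets for yeast, Bacillus and mouse genes, reached at most 16.8 on the sks array and 11.1 on the Col-0 array. The lowest sks signal, that of AT1G11860, was 17.1 times the highest blank, and the lowest Col-0 signal, that of AT1G56190, was 64.8 times. None of the 6 folds is therefore a bound set by a dim array. Over the 554 measured probe sets whose mean signal lay between those of the dimmest and the brightest of the 6, a range chosen after the values were seen, the median log2 difference was 0.10 and 10.6% were at least 2-fold lower in sks.

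**Figure D2:**
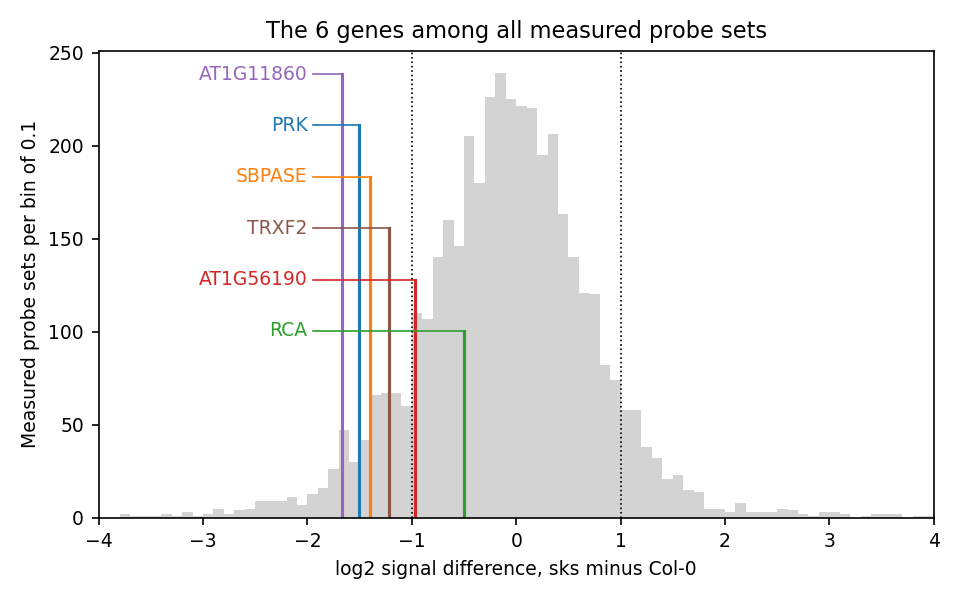
Histogram of log2 signal differences, sks minus Col-0, for the 4124 measured probe sets in bins of 0.1 (17 lie beyond the axis), with vertical lines at the 6 genes and dotted lines at 2-fold. The genes run from -1.67 for AT1G11860 to -0.50 for RCA, all to the left of the overall median of -0.08.

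The order of the 6 differences was compared with how far different probe sets of one gene disagree on these arrays. In the 80 genes that had several measured probe sets, the differences within a gene had a pooled SD of 0.65 and a median absolute difference of 0.33 over 101 pairs. Probe sets of one gene share the RNA and sometimes probes, so this spread is no replicate error. Of the 5 steps between neighbours in the order AT1G11860, PRK, SBPASE, TRXF2, AT1G56190 and RCA, only the last, 0.47, was above 0.33, and none was above 0.65. No step from AT1G11860 up to AT1G56190 was thus larger than this spread. Of the 15 pairs of genes, 5 differed by more than 0.65, of which 4 involved RCA and 1 was AT1G11860 with AT1G56190. The pooled SD describes single probe sets about the mean of their gene, and a gap between probe sets spreads wider. Passing 0.65 therefore does not by itself set a pair apart. The gap between PRK and RCA was 1.01, meaning that the PRK signal relative to the RCA signal was 2.01-fold lower in sks. A gap of this kind does not depend on a constant scaling factor between the arrays. It can change with steps that depend on the signal level, and RCA was far brighter than PRK. The log2 differences of PRK and RCA were -1.56 and -0.41 after quantile normalization, and -1.54 and -0.60 after loess removal.

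The rest of the pathway was poorly covered by single-gene probe sets. Lists of 101 genes were written for the Calvin cycle, photorespiration, the chloroplast thioredoxin system, Rubisco assembly, starch and sucrose synthesis, and cytosolic glycolysis. Apart from the 6 genes above, 7 could be matched to a probe set of their own and 6 of these were measured. All 6 had lower signals in sks, 2 of them at least 2-fold and none at least 2-fold higher, with a median log2 difference of -0.77. Over all measured probe sets, 54.4% were lower by any amount, 12.4% at least 2-fold lower and 8.12% at least 2-fold higher. The lists were written with earlier results of these data known, so these genes are not an independent choice. HPR, one of the 2, was known to be low at that time. The count of 2 was 1 under quantile normalization, loess removal and an offset of 16. In these settings 11%, 10.9% and 8.29% of all measured probe sets were at least 2-fold lower. The count was 4 under spike scaling, where 26.5% were.

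Of 24 Calvin cycle genes, the 4 with a measured probe set were RCA, AT1G56190, SBPASE and PRK themselves, so the list offers no other gene. Of these 4, 2 were at least 2-fold lower, beside 12.4% of all measured probe sets. They were picked for this difference, so nothing is read from their count. None of its genes for the Rubisco small subunit, glyceraldehyde phosphate dehydrogenase, aldolase, transketolase or CP12 could be read. Of 24 photorespiration genes, AT1G11860 and HPR (AT1G68010) were measured, both past 2-fold. Both were known to be low beforehand, so nothing is read from this count. HPR, the peroxisomal hydroxypyruvate reductase, read 425.6 in sks and 2232.1 in Col-0, a log2 difference of -2.39. It was thus lower than AT1G11860 by a further 0.72 on the log2 scale. The P, H and L proteins of glycine cleavage could not be read.

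Of 18 genes of the thioredoxin system, 4 were measured and 4 were lower in sks, 2 of them at least 2-fold. Without TRXF2, which was chosen for its low signal, 3 were measured and 3 were lower, and 1 was at least 2-fold lower. Over all measured probe sets, 54.4% were lower by any amount and 12.4% at least 2-fold. NTRC (AT2G41680), which joins an NADPH-dependent reductase and a thioredoxin in one protein, read 35.5 in sks and 76.2 in Col-0. Its log2 difference of -1.10 was -0.97 after quantile normalization, -0.96 after loess removal and -0.84 with 16 added to each signal. Its place past 2-fold thus depends on the processing. FTRB (AT2G04700), the catalytic subunit of ferredoxin-thioredoxin reductase, which passes electrons to f-type thioredoxins, read 743.4 and 1224.8. TRXY2 (AT1G43560), a thioredoxin of the y type, read 71.1 and 126.0. Both were within 2-fold, at log2 differences of -0.72 and -0.83, compared with -1.22 for TRXF2.

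Among the list genes for downstream and parallel steps, only SBE2.2 and cPGI were measured, and both differences were smaller than the -0.50 of RCA. SBE2.2 (AT5G03650), a starch branching enzyme, read 98.2 in sks and 120.1 in Col-0, a log2 difference of -0.29. The cytosolic glucose phosphate isomerase cPGI (AT5G42740) read 25 and 33.8, a difference of -0.44. Its sks signal was not far above the highest sks blank of 16.8. The GAPDH control probe sets, left out of these lists as controls, were higher in sks by a log2 difference of at least 0.79, as given below. The sucrose phosphate synthase SPS4F (AT4G10120) read 0.3 and 10.8, within the blank range on both arrays, so no fold is given. None of the 9 genes listed for Rubisco assembly could be matched to a probe set.

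**Figure D3:**
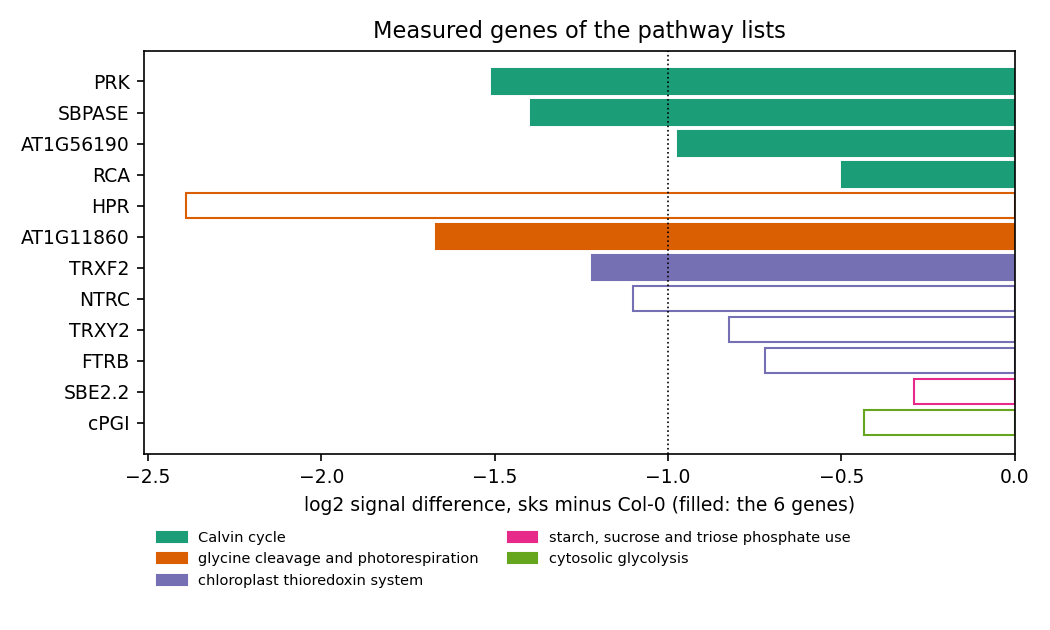
log2 signal difference, sks minus Col-0, of the 12 measured genes of the pathway lists, filled for the 6 genes and open for the others, coloured by list, with a dotted line at 2-fold lower. All bars point to lower signals in sks, from -2.39 for HPR to -0.29 for SBE2.2.

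Other features of the 2 RNA samples differed beside these genes. The green tissue markers, 2 of 12 with a probe set, summed to 6155.1 in sks and 8665.4 in Col-0, and neither was at 0. LHCB4.1, an antenna protein of photosystem II, read 4306.8 and 5954.7, and PSAN, a photosystem I subunit, 1848.3 and 2710.7. Their log2 differences of -0.47 and -0.55 lay on either side of the -0.50 of RCA, whereas the other 5 of the 6 genes were lower still. Since the 6 genes were chosen for low signals in sks, nothing is read from this contrast. In RNA from whole seedlings, fewer green cells and less transcript per cell cannot be told apart. In the list of 12 seed and reserve markers 1 gene was measured, ICL, the isocitrate lyase that seedlings use while living on stored oil, at 308.7 in sks and 35.3 in Col-0. The root list of 7 genes and the epidermis list of 6 had no matched probe set, so the label of whole seedlings was checked on green tissue alone. The part of tissue make-up or seedling stage in the lower signals was not tested.

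RNA and labelling measures also moved. The GAPDH control had a 3′ over 5′ signal ratio of 4.14 in sks and 2.94 in Col-0, and the ubiquitin control one of 4.65 and 4.84. All 3 GAPDH control probe sets were higher in sks, by a log2 difference of at least 0.79, and of at least 0.35 with every scaling tried, opposite in direction to the 6 genes. The 25S ribosomal RNA control moved in the same direction as the 6 genes, at 117.2 in sks and 296.8 in Col-0, a log2 difference of -1.34 that lay between -1.78 and -1.23 over the settings tried. The actin control and the ubiquitin controls had sks over Col-0 ratios of 1.02 to 1.20, and the 5S ribosomal RNA control, in the blank range on the sks array, read 14.8 and 16.7. All 9 hybridisation spikes were brighter on the sks array, with a median ratio of 1.36. The part of these measures in the results was not tested. When sks signals were scaled down to match the spikes, the 6 log2 differences became lower by 0.44, 5 genes instead of 4 passed 2-fold, and the share of all measured probe sets at least 2-fold lower went from 12.4% to 26.5%.

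**Figure D4:**
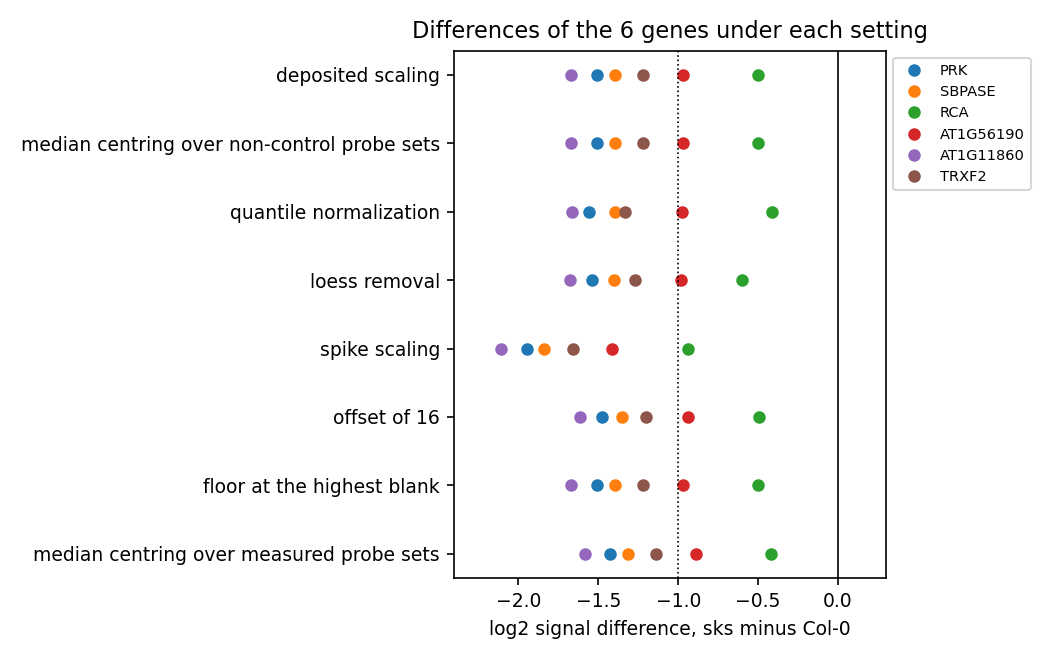
log2 signal difference, sks minus Col-0, of the 6 genes with the deposited scaling and under 7 other settings, with a dotted line at 2-fold lower. All points lie below 0 in each setting, RCA stays nearest to 0, between -0.94 and -0.41, and AT1G56190 passes 2-fold under spike scaling, at -1.41.

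For each of the 6 genes, the measured single-gene probe set of another gene with the nearest pair of log2 signals was looked up over the 2 arrays. RCA lay nearest to LHCB4.1, at a distance of 0.03 log2 units. PRK lay nearest to ATG8E (458.9 in sks and 1249.4 in Col-0) at 0.10, and AT1G56190 to AT1G78830 (359.4 and 675.6) at 0.10. The nearest neighbours of AT1G11860, TRXF2 and SBPASE were AT5G46900, AT1G51400 and COR47, at distances of 0.23, 0.25 and 0.31. With 2 arrays such a distance describes only 2 values per gene.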

How the data were processed

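RNA from 1 sks and 1 Col-0 seedling sample was analysed, each on 1 array. Per the labels' protocols, RNA was converted into biotin-labelled cRNA. The deposited signal intensity is linear, 1 value per probe set. How probes were summarised is not given in the sources used here. On both arrays the 2%-trimmed mean was 100.2, so the authors' scaling was kept. Signals below 1 were set to 1 before log2, and 50 control probe sets were left out. Measured means a mean signal of at least 19.4.

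Genes came from the platform annotation, which can be old: 3794 probe sets had 1 gene, 70 had several and 4383 non-control ones were unnamed here. Symbols were updated by Entrez ID with RefSeq's TAIR10.1 table, where 3784 matched. No genome build is named in the sources used here, so coordinates are not given.

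The 6 genes and the gene lists were chosen with earlier results of these data known. Named are the 6 genes, list genes with a single-gene probe set, and 1 nearest neighbour per gene. Counting was tested on simulated data with a noise level not taken from these arrays. That checked the counting steps and not the reliability of the 2-fold calls. Python 3.11.15, pandas 2.3.3 and statsmodels 0.14.6 were used. Alternatives were other scalings, offset, floor, filters, fold limits and gene omissions. The number of arrays limits precision.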

Additional observations from a re-analysis of the deposited data

How the results depend on the processing

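All 6 genes were lower in sks with the deposited scaling and under the 7 alternatives of scaling, offset of 16 and floor, among them centring on measured probe sets, chosen after the data were seen. The largest shift of any gene's log2 difference was 0.44, under spike scaling, and 0.11 or less under the others. Centring over all non-control probe sets moved nothing, since their median difference was 0. The floor at the highest blank could move nothing, since every signal of the 6 genes lay above it. The median over the genes ranged from -1.22 when PRK, SBPASE or AT1G11860 was left out to -1.75 under spike scaling. With a 3-fold limit, 1 of the 6 genes (AT1G11860), 0 Calvin cycle genes and 0 thioredoxin system genes passed, where 4.49% of measured probe sets did. The thioredoxin system count of 2, which includes TRXF2, was 1 under quantile normalization, loess removal, the offset and the filter at the 75th percentile. In these settings 11%, 10.9%, 8.29% and 12.6% of all measured probe sets passed. The thioredoxin system count was 4 under spike scaling and under a 1.5-fold limit, where 26.5% and 25.5% of all measured probe sets passed. At least 2-fold higher and lower over all measured probe sets were 335 and 510, and 135 and 1092 under spike scaling. With 1 array per genotype, leaving out replicates was not an option and no paired analysis was possible.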
